A study of Homo sapiens with 10 samples.

Results

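The ERBB receptors EGFR, ERBB2, ERBB3 and ERBB4 were examined through every H3K27ac region that the annotated region table assigned to one of these symbols. There were 45 such regions of 67387 annotated regions and 169637 counted regions, each 502 bp wide. EGFR held 34 of them, ERBB2 held 8, ERBB3 held 2 and ERBB4 held 1. All 45 passed the filter on low counts and were tested, the ERBB4 region only through libraries of treated cells.

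ERBB receptors are a family of receptor tyrosine kinases that pair with themselves or with one another when a growth factor binds outside the cell. EGFR binds EGF and its relatives, ERBB3 and ERBB4 bind neuregulins, ERBB2 has no known ligand of its own and serves as a shared partner, and ERBB3 has little kinase activity and signals through partners. Acetylation of lysine 27 of histone H3 (H3K27ac) marks active promoters and enhancers, and ChIP-seq counts the DNA fragments that carry it.

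H1975 is a human lung adenocarcinoma cell line whose growth depends on mutant EGFR. Osimertinib is an EGFR kinase inhibitor, and cells that survive it without acquired resistance are called drug-tolerant persisters (DTP). AZD5153 is a bivalent inhibitor of BET proteins, the bromodomain readers of acetylated histones. The DMSO libraries came from cells grown drug-free for 21 days and then given DMSO for 3 days. The osimertinib DTP libraries came from cells kept in 500 nM osimertinib for 24 days. The osimertinib DTP + AZD5153 libraries came from cells given 500 nM osimertinib for 21 days and then 150 nM AZD5153 for 3 days, and whether osimertinib continued over those last days was not stated in the labels. In the lists of reads that follow, persisters stands for the osimertinib DTP libraries and AZD5153 for the osimertinib DTP + AZD5153 libraries, each in the order of replicates 1 to 3. Each group had 3 libraries labelled as biological triplicates, and 1 input library without the H3K27ac antibody was shared. All libraries came from this single cell line, so each statement holds for H1975 only.

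The 9 H3K27ac libraries held 6263443 to 10463351 counts over all regions. Replicate 3 of osimertinib DTP + AZD5153, the shallowest library, stood apart from its group: its Spearman correlation with the other libraries of that group over all regions was 0.354 to 0.430, whereas the other pairs within groups lay between 0.818 and 0.898. Of its annotated counts, 66.7% fell within 1 kb of a transcription start site (TSS), against 59.8% in osimertinib DTP replicate 2 and 40.3% to 45.9% elsewhere. Counts of calls, medians over regions and gene sums that it moves are given with and without it, and other values use all libraries. Marker promoters were checked against the labelled cell line. The 5 epithelial genes EPCAM, CDH1, KRT7, KRT8 and KRT18 all had regions within 1 kb of a TSS, and none of the blood genes PTPRC, CD3E and SPI1 had one. Among markers of other cells, CDH5 of endothelium and COL1A2 and PDGFRB of fibroblasts had such regions, and PECAM1, TEK and COL3A1 had none. Over the fibroblast genes with such regions, COL1A2 and PDGFRB, the summed promoter level was 8.16 to 22.2 CPM in the DMSO libraries, 36.4 to 78.3 CPM in persisters and 41.5 to 167 CPM with AZD5153. For the endothelial genes the sum came from CDH5 alone and was 10.6 to 31.3, 22.5 to 35.6 and 22.6 to 49.4 CPM. The epithelial sum was 373 to 536, 393 to 824 and 401 to 837 CPM. The fibroblast sum was thus higher in every treated library than in every DMSO library, in a cell line with no fibroblasts in its label, and its part in the results below was not tested.

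The start sites of these genes differ in sequence, and 3 upstream windows are shown because they lie under regions whose acetylation was compared below. Each is the 250 bases before a RefSeq start on GRCh38.p14, on the plus strand and written 5′ to 3′. In the window before the main EGFR start, chr7:55018767-55019016, the capitals mark a GC box (GGGCGG or its complement), which had 2 matches. In the window before the EGFR start inside intron 1, chr7:55109589-55109838, and in the ERBB2 window, chr17:39687844-39688093, the capitals mark an AP-1 motif (TGANTCA), which had 2 and 1 matches.
EGFR main start: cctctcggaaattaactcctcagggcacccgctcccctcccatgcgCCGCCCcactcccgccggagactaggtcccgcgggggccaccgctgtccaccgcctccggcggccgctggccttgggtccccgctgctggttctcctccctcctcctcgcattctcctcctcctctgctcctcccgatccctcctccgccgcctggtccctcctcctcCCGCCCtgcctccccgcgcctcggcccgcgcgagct
EGFR internal start: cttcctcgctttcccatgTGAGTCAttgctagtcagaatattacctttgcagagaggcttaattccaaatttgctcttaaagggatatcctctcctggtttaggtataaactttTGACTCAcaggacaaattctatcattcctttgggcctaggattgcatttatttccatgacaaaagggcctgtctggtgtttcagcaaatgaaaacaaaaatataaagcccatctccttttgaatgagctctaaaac
ERBB2: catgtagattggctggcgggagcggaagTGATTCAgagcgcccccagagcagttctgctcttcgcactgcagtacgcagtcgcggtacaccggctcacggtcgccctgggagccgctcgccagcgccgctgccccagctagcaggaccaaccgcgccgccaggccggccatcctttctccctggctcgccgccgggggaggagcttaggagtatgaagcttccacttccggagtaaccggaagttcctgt
The main EGFR window was 73.6% G or C with 25 CpG sites, and it held no TATAAA, as is usual of start sites in CpG islands. The internal EGFR window was of another kind, with 38.8% G or C, 1 CpG site and 2 matches to TATAAA. The ERBB2 window was 65.6% G or C with 23 CpG sites and held 2 matches to the ETS motif CCGGAAGT and 1 to CCAAT. Each motif was searched on both strands, and no match overlapped a match to another motif. Over all 35116 RefSeq promoter windows of the same length, 6.57% held the AP-1 motif, 42.6% the GC box, 10.7% TATAAA, 32.0% CCAAT and 3.42% the ETS motif, and the medians were 11 CpG sites and 58% G or C. A match is a description of letters and not evidence of binding. ERBB4 had no counted region at its start, and ERBB3 had no window.

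The regions lay very differently over the 4 genes. Of the 34 EGFR regions, 6 were distal intergenic, 19 were intronic and all of these in intron 1 of 27, 3 were 1 to 2 kb from a TSS and 6 were within 1 kb of one. They stretched from a distance of -48878 bp to 44279 bp from the nearest annotated start, where a negative distance is upstream. EGFR has a main start at chr7:55019017 and several further annotated starts, and each distance is measured from the nearest one, so neighbouring regions can be measured from different starts. ERBB2 had 7 regions within 1 kb of one of its several annotated starts and 1 further away, both ERBB3 regions lay at the start of that gene, and the single ERBB4 region lay in intron 1 of 27.

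Levels are given as CPM, the counts scaled to the TMM-adjusted library total, and since all regions have the same width they can be compared between regions. Mean levels over the 9 libraries ran from 2.41 to 87.1 CPM with a median of 9.14 at EGFR, from 5.04 to 28.1 CPM with a median of 13.4 at ERBB2 and from 31.4 to 33.0 CPM at ERBB3. The ERBB4 region had a mean of 4.42 CPM. In the input library the median count per region was 20 at EGFR, 11.5 at ERBB2, 27 at ERBB3 and 6 at ERBB4, against 13 over all annotated regions. The part that copy number had in these counts was not tested.

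**Figure D1:**
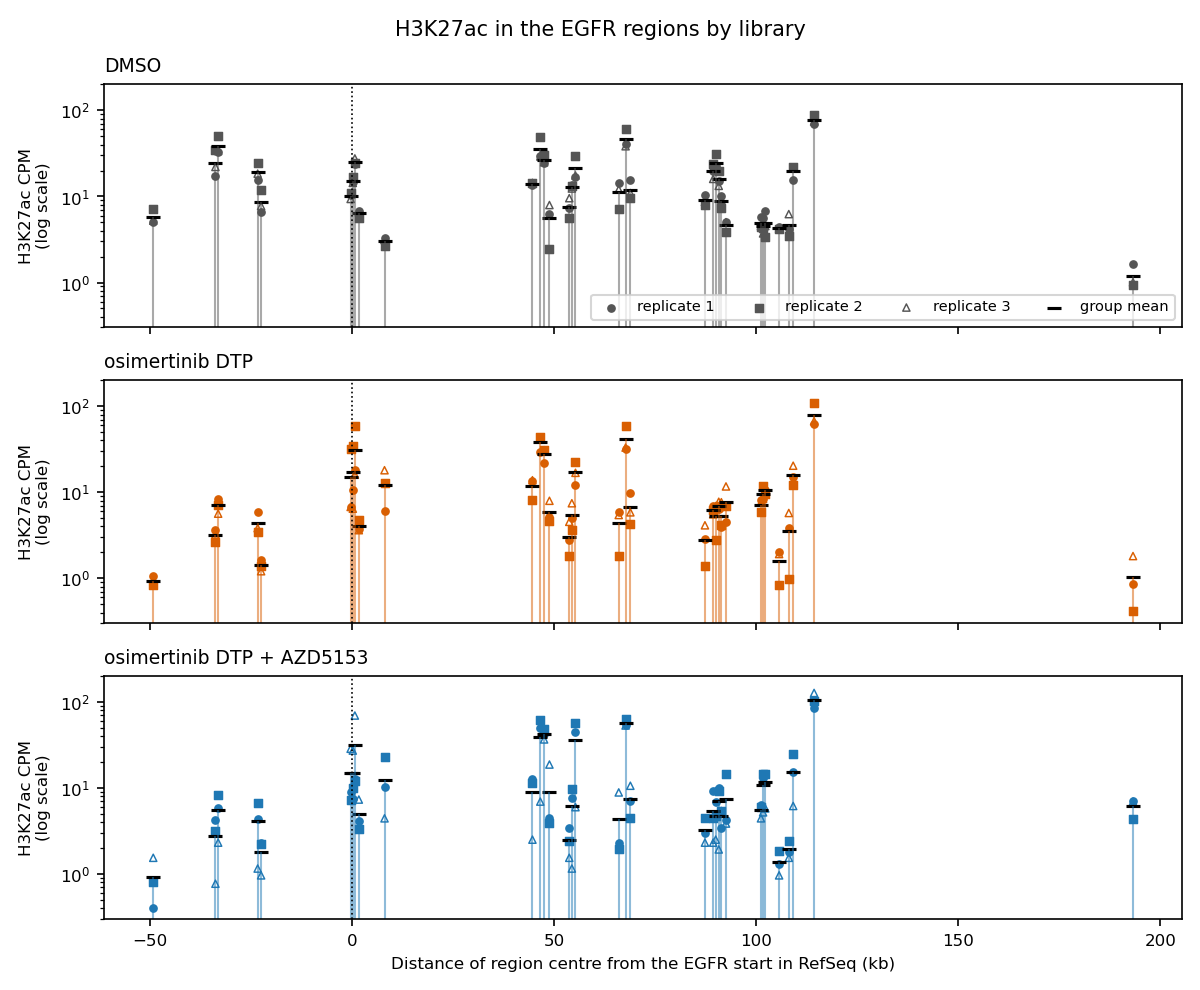
H3K27ac level of each of the 34 EGFR regions in CPM on a log axis (vertical) against distance from the main EGFR start in kb (horizontal axis), with 1 panel per group, 1 point per library and a bar at the group mean. The regions upstream of the start are high in the 3 DMSO libraries and low in the treated ones, while the highest region, near the far end of intron 1, has a similar level in all panels.

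The first comparison asks what differed between osimertinib persisters and DMSO-treated cells. A region was called where edgeR's quasi-likelihood test gave a Benjamini-Hochberg adjusted p under 0.05 over all 157919 tested regions. Of the 45 ERBB regions, 6 were called lower, all at EGFR, against 5.13% called lower among all tested regions. One ERBB region was called higher, the ERBB4 region, against 5.58% of all tested regions. The median log2 fold change was -0.35 over the EGFR regions, 0.68 over the ERBB2 regions and 0.50 over the ERBB3 regions, beside 0.15 over all tested regions, which is the shift against which these values should be read. At an unadjusted p under 0.05, 10 ERBB regions were lower and 3 higher, where 25.9% of all regions passed in either direction. All osimertinib DTP libraries lay below all DMSO libraries at 15 of the 45 ERBB regions and above them at 7. Of all counted regions, 18.2% and 19.8% were separated in this way, so a lack of overlap is common here.

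The called EGFR regions fell into a distal intergenic stretch upstream of the gene and a position next to the internal start. Upstream, all 5 regions between 49.4 and 22.2 kb before the main start were called lower in persisters. The region with the largest fall was chr7:54985023-54985524, at a distance of -33493 bp. It held 190, 338 and 219 reads in DMSO, 38, 19 and 32 in persisters, and 43, 27 and 4 with AZD5153. Every DMSO library lay far above every treated library, and the 2 treated groups overlapped. Its level was 24.7 ± 9.14 CPM in DMSO and 3.17 ± 0.497 CPM in osimertinib DTP (mean ± SD, n = 3), a log2 fold change of -2.96 (SE 0.63, edgeR adjusted p = 0.00886). In bulk chromatin, a lower level in each cell and fewer cells that carry the mark cannot be told apart, here and below.

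Its neighbour, chr7:54985694-54986195, was the highest of the upstream regions. Reads there numbered 358, 484 and 335 in DMSO, 87, 51 and 56 in persisters, and 59, 71 and 12 with AZD5153. All treated libraries again lay below all DMSO libraries, and the log2 fold change of osimertinib DTP over DMSO was -2.46 (SE 0.57, edgeR adjusted p = 0.0131). The most distant region, chr7:54969638-54970139 at -48878 bp, held 55, 70 and 52 reads in DMSO, 11, 6 and 9 in persisters, and 4, 7 and 8 with AZD5153. Neither treated group overlapped DMSO, and the difference between osimertinib DTP and DMSO was -2.62 on the log2 scale (SE 0.63, edgeR adjusted p = 0.0146).

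The 2 upstream regions closest to the gene repeated this order. At chr7:54995468-54995969 the reads were 171, 236 and 183 in DMSO, 62, 25 and 38 in persisters, and 44, 58 and 6 with AZD5153. At chr7:54996319-54996820 they were 73, 114 and 77 in DMSO, 17, 10 and 12 in persisters, and 23, 19 and 5 with AZD5153. No treated library reached a DMSO library at either position. Their log2 fold changes of osimertinib DTP over DMSO were -2.13 (SE 0.61, edgeR adjusted p = 0.0345) and -2.62 (SE 0.58, edgeR adjusted p = 0.0105). The first of these calls, at -23048 bp, was lost when any 1 DMSO or osimertinib DTP library was left out. In this comparison the calls of all upstream regions were lost without DMSO replicate 2, osimertinib DTP replicate 2 or osimertinib DTP replicate 3.

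At the main EGFR start no region was called. The 4 regions around that start summed to 57.2 ± 1.16 CPM in DMSO, 67.0 ± 53.7 CPM in persisters and 66.3 ± 57.6 CPM with AZD5153 (mean ± SD, n = 3). Those wide spreads came from 1 library in each treated group, since the summed levels were 39.3, 129 and 32.8 CPM in persisters and 33.2, 32.8 and 133 CPM with AZD5153. The high values belonged to osimertinib DTP replicate 2 and osimertinib DTP + AZD5153 replicate 3, the libraries with the highest promoter shares of all counts. The other 4 treated libraries lay below the 3 DMSO libraries, which held 55.9, 57.8 and 57.9 CPM, and the part of the promoter share in this was not tested.

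The highest EGFR region within 1 kb of a start, chr7:55019506-55020007 at 355 bp, showed this library by library. It held 263, 239 and 275 reads in DMSO, 190, 420 and 159 in persisters, and 126, 104 and 360 with AZD5153. The DMSO libraries lay within the range of both treated groups, and neither difference passed the test (log2 0.28, SE 0.68, and log2 0.30, SE 0.68, with edgeR adjusted p = 0.855 and 0.807). Without replicate 3 of the AZD5153 group the second value turned to -1.04 (SE 0.53, edgeR adjusted p = 0.126), and the 2 libraries left in that group lay below all DMSO libraries. The 250-base GC-rich window printed for the main start overlaps 2 further regions, at chr7:55018465-55018966 and chr7:55018999-55019500, and their log2 fold changes of osimertinib DTP over DMSO were 0.55 and 0.16, neither called.

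Around the internal start of EGFR 1 region was called lower in persisters. The 6 regions that surround it, between 87.1 and 92.8 kb after the main start, summed to 83.2 ± 10.4 CPM in DMSO, 34.3 ± 7.90 CPM in persisters and 32.7 ± 12.8 CPM with AZD5153 (mean ± SD, n = 3), with no overlap between DMSO and either treated group. Within this stretch, chr7:55108763-55109264, at -459 bp, was called lower in persisters. Distances in this stretch are measured from an annotated start that lies inside the printed internal window, not from the RefSeq start that follows the window. It held 247, 298 and 206 reads in DMSO, 69, 20 and 65 in persisters, and 68, 41 and 13 with AZD5153. The log2 fold change of osimertinib DTP over DMSO was -2.205 (SE 0.58, edgeR adjusted p = 0.0227), and the call was lost when any 1 of the 6 libraries compared was left out.

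The next region upstream, chr7:55108133-55108634 at -1089 bp, held 220, 232 and 159 reads in DMSO, 72, 45 and 55 in persisters, and 92, 39 and 12 with AZD5153. Neither treated group overlapped DMSO here, but at log2 -1.68 (SE 0.57) the comparison of osimertinib DTP with DMSO missed the threshold (edgeR adjusted p = 0.0661). The region that contains the TATAAA and AP-1 matches printed for the internal start, chr7:55109513-55110014, held 165, 192 and 132 reads in DMSO, 66, 50 and 77 in persisters, and 101, 80 and 10 with AZD5153. Its log2 difference was -1.19 (SE 0.59, edgeR adjusted p = 0.214), so it was not called. The 1 region of the stretch with a positive value, at 1581 bp, had a log2 fold change of 0.74 and an edgeR adjusted p of 0.50.

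The rest of intron 1 had both directions and no call in persisters. The highest of all 45 regions, chr7:55133095-55133596, lies there. It held 763, 846 and 739 reads in DMSO, 655, 779 and 664 in persisters, and 839, 891 and 659 with AZD5153, and the groups overlapped. The difference of osimertinib DTP from DMSO was 0.04 on the log2 scale (SE 0.45, edgeR adjusted p = 0.970). Nearer the main start, at 7692 bp, chr7:55026843-55027344 went the other way from the upstream regions, with 36, 26 and 31 reads in DMSO, 63, 92 and 179 in persisters, and 102, 195 and 23 with AZD5153. All 3 osimertinib DTP libraries exceeded all DMSO libraries, at a log2 difference of 2.02 (SE 0.64) that fell just short of the threshold (edgeR adjusted p = 0.0523). Without osimertinib DTP + AZD5153 replicate 3 in the fit, the same difference passed at adjusted p = 0.00298. Across the 25 EGFR regions called in neither treated group over DMSO, log2 values ran from -1.68 to 1.11 in persisters and from -1.60 to 1.26 with AZD5153.

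ERBB2, the partner receptor, had no called region. Its highest region covers the RefSeq start, chr17:39687719-39688220, with 166, 245 and 147 reads in DMSO, 187, 309 and 157 in persisters, and 349, 333 and 247 with AZD5153. The osimertinib DTP libraries overlapped DMSO, while all AZD5153 libraries were above all DMSO libraries. The log2 fold changes over DMSO were 0.47 (SE 0.53, edgeR adjusted p = 0.639) in osimertinib DTP and 1.14 (SE 0.53, edgeR adjusted p = 0.150) with AZD5153, and the second was 1.00 (adjusted p = 0.108) without replicate 3 of that group. Of the 8 ERBB2 regions, 7 had a positive and 1 a negative fold change in osimertinib DTP over DMSO. No region was assigned to PGAP3, a gene next to ERBB2. Which of these genes the region over the RefSeq start of ERBB2 belongs to was not tested.

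The ERBB2 region with the largest positive value was at a start within the gene, chr17:39700039-39700540. It held 77, 91 and 106 reads in DMSO, 152, 408 and 167 in persisters, and 102, 125 and 317 with AZD5153. The same 2 promoter-rich libraries were highest in their groups. Its log2 fold change of 1.70 in osimertinib DTP (SE 0.70) did not pass with all libraries (edgeR adjusted p = 0.130) and passed without osimertinib DTP + AZD5153 replicate 3 (adjusted p = 0.0124). The 1 negative ERBB2 region, chr17:39689061-39689562 at 942 bp, held 67, 86 and 90 reads in DMSO, 55, 22 and 42 in persisters, and 31, 19 and 18 with AZD5153, and both treated groups lay below DMSO without overlap. Neither log2 value, -0.93 (edgeR adjusted p = 0.282) in osimertinib DTP and -1.45 (edgeR adjusted p = 0.0677) with AZD5153, was called with all libraries. The second of these passed without replicate 3 of that group, at -1.59 and an adjusted p of 0.0159.

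ERBB3, the receptor that relies on its partners' kinase activity, had 2 regions at its start and neither was called. At chr12:56079183-56079684 the reads were 205, 411 and 328 in DMSO, 103, 516 and 266 in persisters, and 71, 221 and 317 with AZD5153. At chr12:56080188-56080689 they were 156, 301 and 278 in DMSO, 98, 597 and 337 in persisters, and 63, 227 and 258 with AZD5153. In both regions the libraries of 1 group spread more widely than the groups differed, and the groups overlapped. The log2 fold changes of osimertinib DTP over DMSO were 0.20 (SE 0.73) and 0.79 (SE 0.73), with edgeR adjusted p of 0.906 and 0.560.

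ERBB4, a neuregulin receptor with a kinase of its own, held the region with the largest fold change of the 45. Its 1 region, chr2:212451608-212452109, in intron 1 at -22361 bp from the nearest annotated start, held 3, 3 and 3 reads in the DMSO libraries. The osimertinib DTP libraries held 51, 41 and 65 reads, and the osimertinib DTP + AZD5153 libraries 97, 95 and 5. All treated libraries were above all DMSO libraries, but replicate 3 of the AZD5153 group only slightly. The log2 fold change of osimertinib DTP over DMSO was 4.22 (SE 0.81, edgeR adjusted p = 0.00574). Because DMSO counts were so low, the ratio of scaled summed counts is also given, and it was 19.4 (95% exact interval of counting error 9.96 to 43.2) for osimertinib DTP over DMSO. With AZD5153 it was 28.3 (14.6 to 62.7), or 35.2 (18.2 to 78.2) without replicate 3. In the input library the region held 6 reads. Its DMSO reads were below the minimum count of 10 in the filter. The region therefore entered the test only through treated libraries, where it was high, and could hardly be called lower. The summed level of the fibroblast marker promoters was higher in the same libraries, as given above, and its part in this result was not tested.

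**Figure D2:**
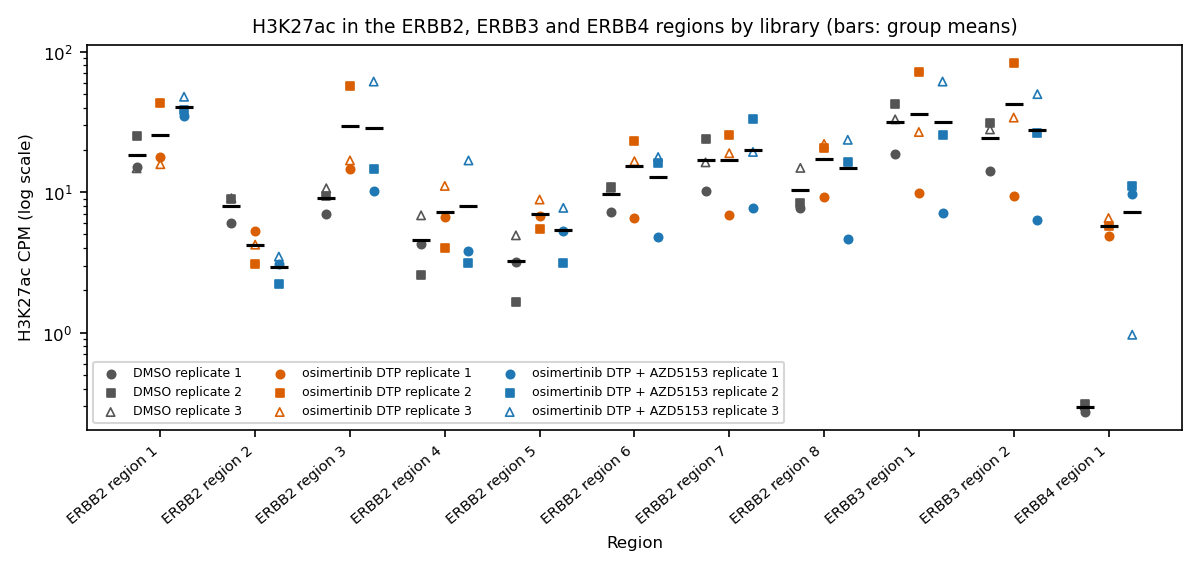
H3K27ac level in CPM on a log axis (vertical) of each ERBB2, ERBB3 and ERBB4 region, numbered by position (horizontal axis), with 1 point per library, colour for the group, shape for the replicate and a bar at the group mean. The ERBB4 region has a mean of 0.295 CPM in the DMSO libraries and lies higher in all treated ones, whereas the groups overlap at both ERBB3 regions.

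The second comparison asks how the osimertinib DTP + AZD5153 libraries differed from the osimertinib DTP libraries. Since the labels do not state whether osimertinib continued alongside AZD5153, giving AZD5153 and stopping osimertinib cannot be told apart here. No ERBB region was called in either direction between osimertinib DTP + AZD5153 and osimertinib DTP, and edgeR called no region at all: 0% of all tested regions higher and 0% lower. Over all regions 4.44% had an unadjusted p under 0.05, which is 7013 regions, and DESeq2 called 21 regions higher and 73 lower. Among the ERBB regions 1 had an unadjusted edgeR p under 0.05, and DESeq2 called the same region higher.

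That region is chr7:55211979-55212480, which starts 351 bp beyond the RefSeq end of EGFR. It held 18, 9 and 10 reads in DMSO, 9, 3 and 18 in persisters, and 70, 38 and 36 with AZD5153. All 3 AZD5153 libraries, replicate 3 included, lay above all 6 others, and DMSO and osimertinib DTP overlapped. Against osimertinib DTP the log2 fold change was 2.53 (SE 0.64) with an edgeR adjusted p of 0.944, while DESeq2 gave 2.69 and an adjusted p of 0.0411. Without replicate 3 the edgeR value was 2.42 with an adjusted p of 0.0690. The median log2 difference between these groups was 0.0045 over the EGFR regions, -0.13 over the ERBB2 regions and -0.41 over the ERBB3 regions, beside 0.064 over all tested regions, and the ERBB4 region had 0.36. These medians moved without replicate 3, to 0.19, -0.69 and -1.25 beside -0.17 over all tested regions, with 0.86 at ERBB4, and then 2 ERBB regions were higher and 2 lower at an unadjusted p under 0.05, where 20.1% of all regions passed.

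One further EGFR region differed between replicates rather than between groups. The intronic region chr7:55074076-55074577 held 184, 289 and 174 reads in DMSO, 126, 161 and 167 in persisters, and 445, 491 and 31 with AZD5153. It was chosen for mention after its values were seen. Replicates 1 and 2 of the AZD5153 group were the highest of all libraries and replicate 3 the lowest. With all libraries the log2 difference from DMSO was 0.75 (edgeR adjusted p = 0.460), and without replicate 3 it was 1.25 (adjusted p = 0.0336).

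The third comparison sets osimertinib DTP + AZD5153 against DMSO and shares its DMSO libraries with the first. Here 7 ERBB regions were called lower, against 9.01% of all tested regions, and 3 were called higher, against 9.05%. At an unadjusted p under 0.05, 11 were lower and 7 higher, where 31.9% of all regions passed in either direction. The median log2 fold change was -0.50 over the EGFR regions, 0.62 over the ERBB2 regions and 0.083 over the ERBB3 regions, beside 0.23 over all tested regions. Without replicate 3 of the AZD5153 group these medians were -0.75, 0.19 and -0.76 beside -0.11, so that the ERBB3 median changed sign with that library, as did the median over all regions. The counts at an unadjusted p under 0.05 then became 14 lower and 7 higher, where 45.8% of all regions passed.

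All 7 regions called lower were EGFR regions. The 5 upstream regions were among them, with log2 fold changes over DMSO of -2.71, -3.13, -2.80, -2.22 and -2.22 from the most distant to the nearest, and edgeR adjusted p between 0.0042 and 0.0204. Without replicate 3 these became -3.26, -2.73, -2.46, -1.81 and -1.95, each still called. The other 2 were the regions next to the internal start, at -459 bp with -2.37 (SE 0.59, edgeR adjusted p = 0.0109) and at -1089 bp with -1.88 (SE 0.58, edgeR adjusted p = 0.0312). Without replicate 3 their values were -2.09 and -1.54, and both were called. The call at -1089 bp was lost in 6 of 17 alternatives, among them leaving out any 1 DMSO library, osimertinib DTP replicate 1 or AZD5153 replicate 2.

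The 3 regions called higher with AZD5153 over DMSO were the ERBB4 region, the region beyond the EGFR end and the intron 1 region at 7692 bp. The ERBB4 region had a log2 fold change of 4.58 (SE 0.81, edgeR adjusted p = 0.00222), and 5.08 without replicate 3. The region beyond the EGFR end had 2.35 (SE 0.63, edgeR adjusted p = 0.0170), where osimertinib DTP against DMSO gave -0.19 (SE 0.64, edgeR adjusted p = 0.903). The call of the region beyond the end was lost in 4 of 17 alternatives, those without TMM and without DMSO replicate 2, DMSO replicate 3 or AZD5153 replicate 1. The intron 1 region had 2.04 (SE 0.64, edgeR adjusted p = 0.0357), and 2.43 without replicate 3. This call was the least stable of the 3 and was lost in 8 of 17 alternatives. They were no TMM, only both groups in the fit, the replicate block, leaving out any 1 DMSO library, and leaving out replicate 1 or 2 of the AZD5153 group, where the value went down to 1.286 without replicate 2.

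The number of ERBB calls depended on single libraries. In osimertinib DTP against DMSO, the 6 regions called lower became 0 without DMSO replicate 2, osimertinib DTP replicate 2 or osimertinib DTP replicate 3, 2 without DMSO replicate 3, 3 without osimertinib DTP replicate 1, and 13 without osimertinib DTP + AZD5153 replicate 3, which belongs to neither group and enters only through the joint fit. The 1 called higher became 0 without DMSO replicate 2, 2 without osimertinib DTP + AZD5153 replicate 2 and 4 without its replicate 3. In osimertinib DTP + AZD5153 against DMSO, the 7 called lower became 2 without DMSO replicate 2 and 11 without osimertinib DTP + AZD5153 replicate 3, and the 3 called higher became 1 without DMSO replicate 2, DMSO replicate 3 or osimertinib DTP + AZD5153 replicate 1 and 6 without its replicate 3. Leaving out that last library also moved the share of all regions called, to 14.2% higher and 12.7% lower in the first comparison and 18.4% higher and 17.3% lower in the third. The signs of the 17 called values held in all alternatives, and the 2 upstream regions at -33493 and -32822 bp and the ERBB4 region kept their calls against DMSO in osimertinib DTP + AZD5153 in every one that gave a value.

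**Figure D3:**
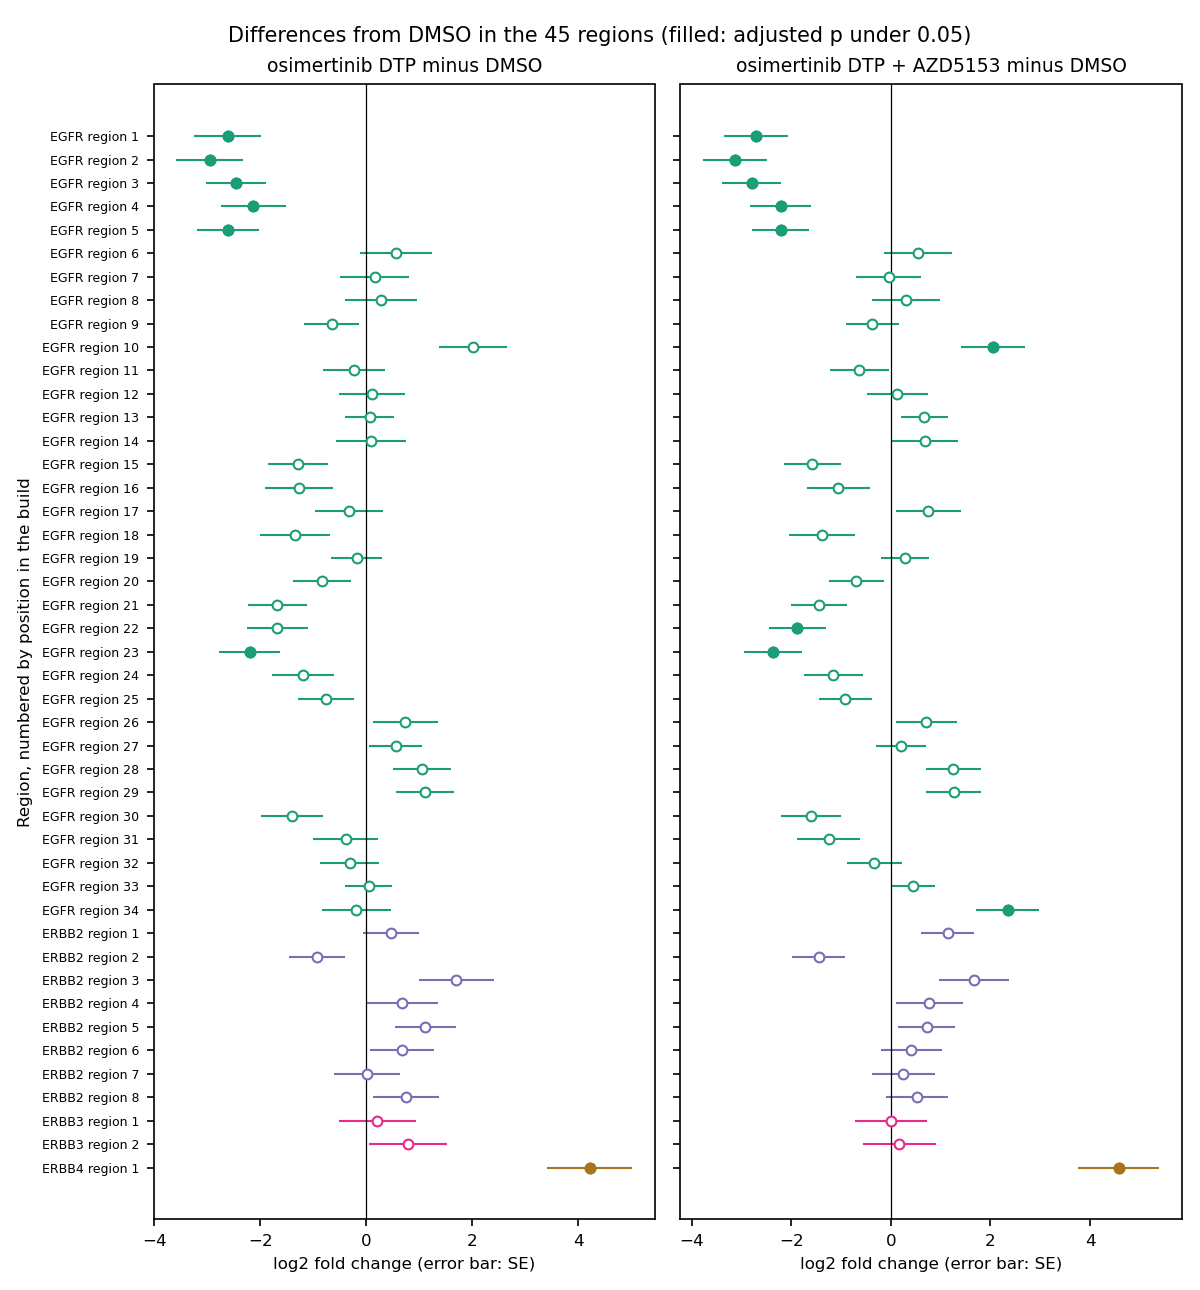
Log2 fold change over DMSO with its standard error (horizontal axis) for each of the 45 ERBB regions (vertical axis), for osimertinib DTP and for osimertinib DTP + AZD5153. Regions are numbered by position within a gene. Filled points have an edgeR adjusted p under 0.05, and they are EGFR regions 1 to 5 upstream and 22 and 23 next to the internal start on the negative side, and ERBB4 with EGFR regions 10 (intron 1, at 7692 bp) and 34 (beyond the gene's end) on the positive side.

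Summed over its regions, EGFR did not pass the test in any comparison although its upstream and internal-start regions were called. The EGFR sum was 770 ± 39.1 CPM in DMSO, 545 ± 142 CPM in persisters and 604 ± 138 CPM with AZD5153 (mean ± SD, n = 3), scaled here to the annotated counts of each library. On this scale all 6 treated libraries lay below the lowest DMSO library. How many other gene sums were separated in this way was not counted. The separation does not hold on the scale used for single regions. There, osimertinib DTP replicate 2, with 3710 reads over a TMM-adjusted total of 7185770, lies slightly above DMSO replicate 1, with 5665 over 11026700. Osimertinib DTP + AZD5153 replicate 2, with 4782 over 8595190, also lies above that DMSO library. The log2 fold change was -0.50 (SE 0.27, edgeR adjusted p = 0.3002) in osimertinib DTP and -0.35 (SE 0.27, edgeR adjusted p = 0.417) with AZD5153, or -0.19 without replicate 3 of that group (adjusted p = 0.623), and the median over all 15633 tested gene sums was 0.061 and 0.098. The sum over EGFR regions within 1 kb of a start was -0.68 with AZD5153 (edgeR adjusted p = 0.204), and without replicate 3 it was -1.09 (adjusted p = 0.00658).

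ERBB2 summed to 111 ± 22.3 CPM in DMSO, 151 ± 41.1 CPM in persisters and 152 ± 44.5 CPM with AZD5153, with overlapping groups and log2 values of 0.45 (SE 0.30, edgeR adjusted p = 0.405) and 0.46 (SE 0.30, edgeR adjusted p = 0.328), the latter 0.25 without replicate 3 (adjusted p = 0.557). Matched by replicate number, the ERBB2 sum was higher in osimertinib DTP than in DMSO each time, at 116 over 92.9, 143 over 104 and 196 over 136 CPM. The fit with the replicate number as a block gave 0.43 and an edgeR adjusted p of 0.231, which is no call. ERBB3 summed to 76.0 ± 22.9, 85.3 ± 48.6 and 64.1 ± 44.2 CPM in the same order, and its groups overlapped. The log2 value of the ERBB3 sum with AZD5153 over DMSO was -0.25 (edgeR adjusted p = 0.832), and -0.85 without replicate 3 (adjusted p = 0.323). ERBB4 has a single region, so its sum repeats the reads given above on this other scale, at 0.412 ± 0.0557, 7.78 ± 3.38 and 9.52 ± 7.45 CPM. It was called higher over DMSO in osimertinib DTP (log2 4.19, SE 0.95, edgeR adjusted p = 0.0244) and with AZD5153 (log2 4.49, SE 0.96, edgeR adjusted p = 0.0128). With the replicate number as a block, the fit of osimertinib DTP against DMSO gave 4.26 for ERBB4 and an adjusted p of 0.0697, which ends that call. It was also lost when any 1 DMSO library, osimertinib DTP replicate 1 or osimertinib DTP replicate 3 was left out, with adjusted p between 0.0563 and 0.113, and the call with AZD5153 was lost without DMSO replicate 2 (adjusted p = 0.0652) or DMSO replicate 3 (adjusted p = 0.0584).

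Of the 4 receptor sums, 1 was called higher in osimertinib DTP against DMSO and none lower, where 5.16% of all gene sums were called higher and 6.07% lower. Between osimertinib DTP + AZD5153 and osimertinib DTP no gene sum was called with all libraries, 0% higher and 0% lower. Against DMSO, osimertinib DTP + AZD5153 had 1 of the 4 called higher and none lower, beside 8.58% higher and 9.51% lower among all gene sums.

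**Figure D4:**
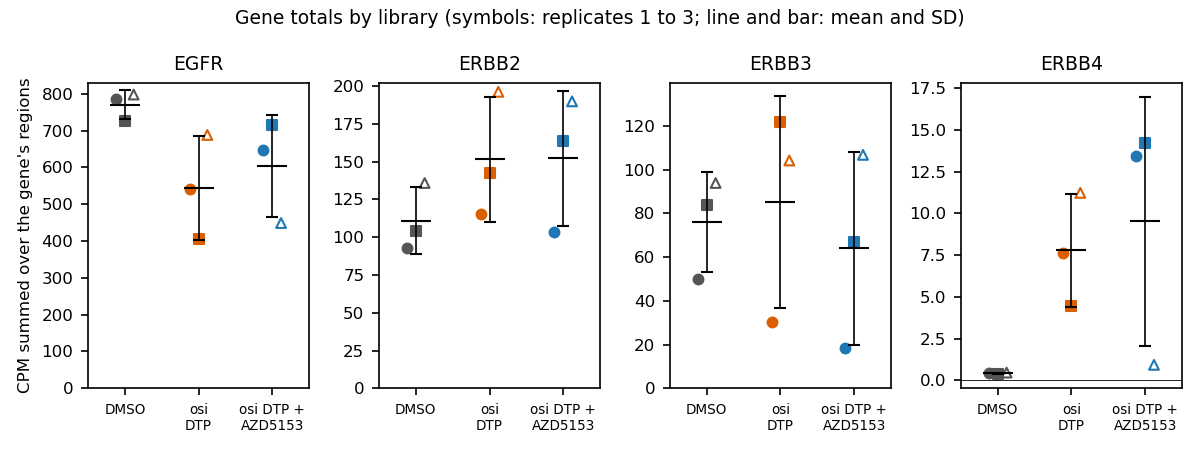
Summed H3K27ac level per receptor gene in CPM (vertical axis) by group (horizontal axis), with 1 point per library and the mean ± SD of 3 libraries. EGFR has the highest sum in every group. The treated EGFR libraries lie below the DMSO ones on this scale, that of the annotated counts, but not on the scale used for single regions.

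The peak lists, which were called in each library on its own, describe the same regions without a count model. Of the 45 ERBB regions, 35 overlapped a peak by at least 1 bp in all 3 DMSO libraries, 29 in all 3 osimertinib DTP libraries and 21 in all 3 osimertinib DTP + AZD5153 libraries. In percent these were 77.8, 64.4 and 46.7, beside 75.8, 75.9 and 55.6 of all 67387 annotated regions. Without replicate 3 of the AZD5153 group, 30 ERBB regions (66.7%) had a peak in both remaining libraries, beside 77.7% of all annotated regions. In no library of the group was a peak found at 3, 6 and 7 of the 45 ERBB regions, beside 10.5%, 8.39% and 9.16% of all annotated regions. Without replicate 3 of the AZD5153 group the last number was 9, beside 12.7%. The upstream EGFR regions at -48878, -33493 and -22197 bp had a peak in 3 DMSO libraries and in none of the 6 treated ones. The other upstream regions kept some peaks. At -32822 bp a peak was found in 2 libraries of each treated group, and at -23048 bp in 1 of each. The EGFR regions at -3122 and 14720 bp, which were not called, also had a peak in 3 DMSO libraries and in no treated one. The region beyond the EGFR end had a peak in the 3 AZD5153 libraries alone. The ERBB4 region and the intron 1 region at 7692 bp had none in DMSO, 3 in osimertinib DTP and 2 with AZD5153. These lists are not independent of the counts, since both come from the same reads.

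Genes around the receptors in the pathway were counted in the same fit. In the counts of these lists, the shares in parentheses are those of all tested regions called higher and lower in the same fit. The ligand list had 11 genes, of which 9 had regions, 70 in all, and NRG3 and NRG4 had none. In osimertinib DTP over DMSO, 7 ligand regions were called higher and 12 lower (5.58% and 5.13%), a median log2 fold change of -1.06 beside 0.15 over all regions. The 7 higher ones belonged to HBEGF, heparin-binding EGF-like growth factor, with 4 of its 11 regions, and NRG1, a neuregulin that binds ERBB3 and ERBB4, with 3 of 16. The 12 lower ones belonged to 5 EGFR or neuregulin ligand genes: AREG with 4 of 10, EREG with 3 of 15, TGFA with 3 of 9, BTC with 1 of 4 and NRG2 with its only region. With AZD5153 over DMSO, 12 ligand regions were higher, 9 of HBEGF and 3 of NRG1, and 19 were lower in 7 genes (9.05% and 9.01%), with a median of -0.81 beside 0.23. Without osimertinib DTP + AZD5153 replicate 3 the counts were 14 higher and 29 lower (14.2% and 12.7%) in the first of these comparisons and 18 and 26 (18.4% and 17.3%) in the other. The second median was then -0.55 beside -0.11 over all regions, and the higher ones again came from 2 genes.

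**Figure D5:**
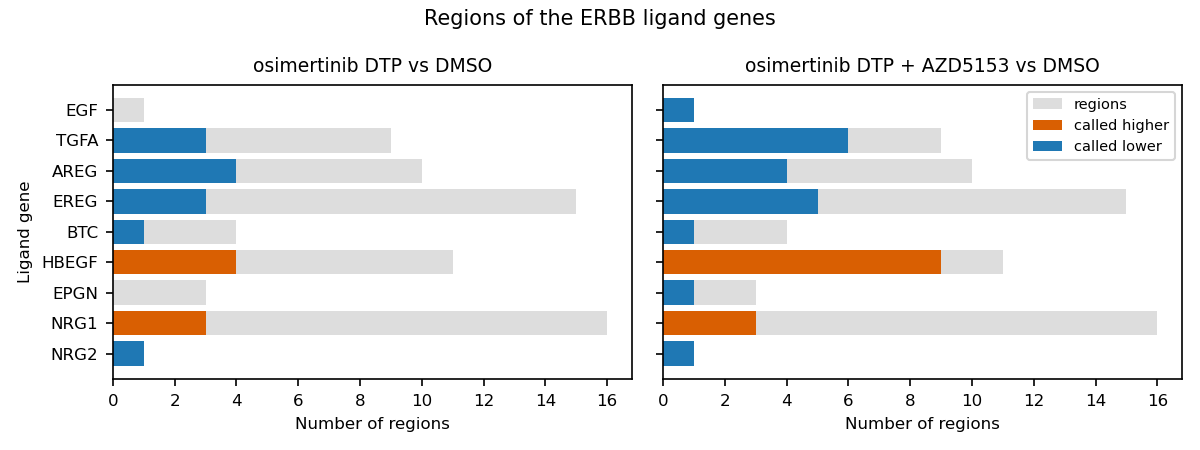
Number of H3K27ac regions (grey) and of those called higher (orange) and lower (blue) over DMSO (horizontal axis) for each ERBB ligand gene with a region (vertical axis), 1 panel for each treated group. Calls higher are seen at HBEGF and NRG1 in both panels. The other 7 genes have calls lower, of which EGF and EPGN have theirs in the osimertinib DTP + AZD5153 panel only.

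Among single ligand regions, the NRG1 region with the largest rise, intronic at -26937 bp, held 8, 5 and 4 reads in DMSO, 71, 46 and 57 in persisters, and 201, 140 and 12 with AZD5153. Its log2 fold change was 3.49 (SE 0.74, edgeR adjusted p = 0.00879) in osimertinib DTP and 4.53 (SE 0.76, edgeR adjusted p = 0.00178) with AZD5153, and replicate 3 of that group was again the lowest. The DMSO reads of this NRG1 region were below the filter's minimum of 10. It therefore entered the test only through treated libraries, where it was high, and could hardly be called lower. At the HBEGF start, 867 bp inside the gene, the reads were 18, 5 and 12 in DMSO, 37, 31 and 94 in persisters, and 51, 50 and 49 with AZD5153. The osimertinib DTP libraries were all above DMSO, at 2.35 on the log2 scale (SE 0.63, edgeR adjusted p = 0.0257). With AZD5153 the largest HBEGF rise was 12660 bp away, with 44, 10 and 14 reads in DMSO, 70, 35 and 74 in persisters, and 157, 117 and 76 with AZD5153 (log2 over DMSO 2.76, SE 0.61, edgeR adjusted p = 0.00606).

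The largest falls in the ligand list were at TGFA and BTC, which encode ligands of EGFR. A TGFA region at -42229 bp held 206, 385 and 286 reads in DMSO, 23, 16 and 15 in persisters, and 14, 22 and 2 with AZD5153. Every treated library was below every DMSO library, and the log2 fold change in osimertinib DTP was -3.87 (SE 0.66, edgeR adjusted p = 0.00374). A BTC region at 99144 bp, distant enough that its assignment to this gene by nearest start is uncertain, held 90, 230 and 123 reads in DMSO, 9, 7 and 8 in persisters, and 18, 10 and 0 with AZD5153 (log2 -4.05 in osimertinib DTP, SE 0.78, edgeR adjusted p = 0.00603). With AZD5153 the largest TGFA fall was at 77408 bp, where 54, 167 and 96 DMSO reads stood against 5, 1 and 1 (log2 -5.15, SE 0.77, edgeR adjusted p = 0.00122).

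The adaptor and effector list, which runs from GRB2 and SHC1 to RAS, RAF, MAPK, PI3K, AKT and STAT genes, had 105 regions at 24 of 27 genes. In osimertinib DTP over DMSO 11 were called higher and 2 lower (5.58% and 5.13%) with a median log2 fold change of 0.55. With AZD5153 over DMSO 14 were higher and 3 lower (9.05% and 9.01%) with a median of 0.62. Without osimertinib DTP + AZD5153 replicate 3 these became 27 and 4 (14.2% and 12.7%), and 23 and 9 (18.4% and 17.3%), and the second median became 0.31. PIK3R1, a regulatory subunit of PI3K, had the largest rise, at an intronic region at -15144 bp with 6, 6 and 2 reads in DMSO, 162, 87 and 136 in persisters, and 207, 126 and 41 with AZD5153 (log2 4.88 and 4.95 over DMSO). A region of PIK3CA, the catalytic subunit gene, at -23391 bp held 4, 3 and 5 reads in DMSO and 99, 27 and 97 in osimertinib DTP (log2 4.25, edgeR adjusted p = 0.00373). The largest fall was 3309 bp upstream of BRAF, with 67, 171 and 108 reads in DMSO, 8, 9 and 11 in persisters, and 7, 4 and 0 with AZD5153 (log2 -3.46 and -4.70). Over DMSO, each treated group had 3 of 9 PIK3R1 regions and 1 of 2 PIK3CA regions called higher, and 1 of 4 BRAF regions called lower.

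Both other PI3K subunit genes of that list had called regions. At PIK3CB 1 of 12 was called lower over DMSO in each treated group, while the median over its regions was 0.30 in osimertinib DTP and 0.34 with AZD5153. At PIK3R2 3 of 9 were called higher, with AZD5153 only. PIK3CB at -5305 bp held 68, 106 and 64 reads in DMSO, 16, 6 and 9 in persisters, and 10, 7 and 6 with AZD5153 (log2 -2.82 and -2.98, both called by edgeR). PIK3R2 at 1580 bp was called higher with AZD5153 over DMSO at 3.27 on the log2 scale (SE 0.81, edgeR adjusted p = 0.0111), from 28, 8 and 10 reads to 128, 18 and 146, and at 2.33 (adjusted p = 0.00626) without replicate 3, which held the most.

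The list of genes that degrade or inhibit ERBB receptors had 128 regions at all 15 genes. In osimertinib DTP over DMSO 6 were called higher, all at LRIG1, and 10 lower (5.58% and 5.13%), of which 6 were at ERRFI1, 3 at CBLC and 1 at PTPRK. LRIG1 is a membrane protein that lowers ERBB receptor levels, ERRFI1 (MIG6) is a feedback inhibitor of the EGFR kinase, and CBLC is a ubiquitin ligase of the CBL family. With AZD5153 over DMSO 5 were higher and 26 lower (9.05% and 9.01%), and 18 of the 43 ERRFI1 regions and 4 of the 6 CBLC regions were among the lower ones. The medians were -0.19 and -0.16. Without osimertinib DTP + AZD5153 replicate 3 the counts were 19 higher and 25 lower (14.2% and 12.7%), and 19 and 32 (18.4% and 17.3%).

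The LRIG1 region with the largest rise, intronic at -13533 bp, held 1, 1 and 4 reads in DMSO, 16, 11 and 24 in persisters, and 67, 47 and 16 with AZD5153. The ratio of scaled summed counts was 9.45 (95% exact interval of counting error 4.05 to 26.9) in osimertinib DTP and 28.0 (12.5 to 77.6) with AZD5153. With DMSO reads below the filter's minimum of 10, this LRIG1 region entered the test only through treated libraries, where it was high. An ERRFI1 intronic region at -18205 bp held 61, 170 and 128 reads in DMSO, 17, 4 and 12 in persisters, and 10, 12 and 15 with AZD5153 (log2 -3.37 in osimertinib DTP, SE 0.67, edgeR adjusted p = 0.0068). Every treated library was below every DMSO library at this region. With AZD5153 the largest ERRFI1 fall was at -19173 bp, where 50, 74 and 68 DMSO reads stood against 4, 0 and 2 (log2 -4.57). A CBLC region at -1777 bp held 139, 179 and 206 reads in DMSO, 29, 5 and 23 in persisters, and 5, 7 and 7 with AZD5153 (log2 -3.13 and -4.32). NEDD4, a ubiquitin ligase gene, had a region at -46419 bp that was higher with AZD5153 over DMSO at 2.11 (edgeR adjusted p = 0.0306), from 64, 71 and 31 reads to 301, 294 and 29, of which the last is replicate 3, and without it the value was 2.56.

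Genes next to the receptors on the chromosome gave 64 regions at 19 of 21 genes, with 3 called higher and 2 lower in osimertinib DTP over DMSO (5.58% and 5.13%) and 4 and 5 with AZD5153 (9.05% and 9.01%). Their medians were 0.38 and -0.081, the latter -0.26 without osimertinib DTP + AZD5153 replicate 3. Beside EGFR on chromosome 7, VOPP1 had a region at 2660 bp that was higher (55, 38 and 32 reads in DMSO, 187, 169 and 160 in osimertinib DTP, log2 2.24) and a region at -2932 bp that was lower (69, 119 and 136 reads in DMSO, 26, 3 and 31 in osimertinib DTP, log2 -2.39). SEC61G was higher at -51745 bp (log2 2.23). The 4 regions of EGFR-AS1, an antisense gene inside EGFR, were not called. Near ERBB3, ZC3H10 was lower at 1367 bp in osimertinib DTP (log2 -2.06) and with AZD5153 (log2 -2.90), and near ERBB2, GRB7 was higher at 6991 bp with AZD5153 (log2 2.201, or 1.57 without replicate 3). LANCL2, between EGFR and VOPP1, was higher at -39880 bp with AZD5153 (log2 2.08). Without the same library this list had 12 regions higher and 8 lower in osimertinib DTP (14.2% and 12.7%), and 6 and 9 with AZD5153 (18.4% and 17.3%). In osimertinib DTP + AZD5153 against osimertinib DTP no region of any of these 4 lists was called.

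The genes whose summed level was most like each receptor's were ranked by Pearson's r of log2 CPM over the 9 libraries, among gene sums of at least 5 regions. For EGFR they were TGFBI (r = 0.986), LINC02324 (0.983) and ANXA13 (0.980), for ERBB2 PATZ1 (0.963), JDP2 (0.951) and SLC7A5 (0.940), for ERBB3 PRSS22 (0.978), PCDH1 (0.963) and TEX44 (0.961), and for ERBB4 DIRC3 (0.994), COL4A3 (0.992) and EEF1AKMT1 (0.987). These values describe 9 libraries in 3 groups that share their preparation. Leaving out osimertinib DTP + AZD5153 replicate 3 changed all 3 names at ERBB2 but kept the 3 at ERBB3, kept TGFBI and LINC02324 at EGFR and kept COL4A3 alone at ERBB4.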

How the data were processed

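H3K27ac ChIP-seq of H1975 cells was analysed in 9 libraries, 3 per group, with 1 input library used for input counts only. Per the labels, libraries were biological triplicates. The submitters' processing notes name BWA 0.7.17, MACS2 2.2.6, featureCounts 2.0.0, ChIPseeker 1.29.1 and genome build hg38. The authors deposited raw read counts per region for each library, an annotated region table with nearest gene and distance, and per-library peak lists that give each peak's signal as a fold enrichment ratio and its -log10 p and q values. Coordinates are those of the deposited files. Symbols and distances follow the nearest annotated start, which need not be the gene that a region acts on.

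Counts of all regions in all 9 libraries were fitted in 1 edgeR 4.0.16 quasi-likelihood model (R 4.3.3, filterByExpr with a minimum count of 10, TMM, robust), with a mean per group and no covariates, and p-values were adjusted by Benjamini-Hochberg over all tested regions at 0.05. Counts were also summed per gene symbol, and per symbol and promoter class, and tested the same way. CPM are counts scaled to the TMM-adjusted library total. Regions with fewer than 10 reads in every DMSO library, among them the ERBB4 region, passed the filter only through treated libraries. As alternatives, DESeq2 1.42.0, library size without TMM, DESeq2 size factors, a loess offset of span 0.3 (limma 3.58.1), no filter on counts, a fit of annotated regions, a fit of both groups compared, a replicate block, a stricter threshold of 0.01 and each library left out were tried. Scripts were tested on simulated counts. The highest count in any library was 1148, against 1152 possible at 1 read per position and strand, so counts near that number may be capped, and the highest ERBB count was 891. Intervals of count ratios cover counting error only.

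The members and gene lists were chosen with earlier results of these data known. Every ERBB region is accounted for. Values by library are given for regions past the threshold, for the highest region and for the highest promoter region of each gene, and from each list for the called region with the largest rise and fall in at most 2 genes, and the genes most like a receptor are the 3 with the highest r. Other regions so described were chosen after their values were seen. In osimertinib DTP against DMSO, the deviations of libraries with the same replicate number correlated at r = 0.334, 0.355 and 0.324. The labels name replicate numbers and no pairing, so whether the numbers pair libraries is not known. The main fit treats the libraries as unpaired.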

Additional observations from a re-analysis of the deposited data

How the results depend on the processing

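The 17 called values of single ERBB regions were recomputed under each alternative, giving 288 values, of which 235 kept the call, 53 lost it and 0 reversed. The lost calls came mostly from leaving out 1 library, DMSO replicate 2 above all. Counts of ERBB regions moved as follows, and the cause was not tested. For osimertinib DTP over DMSO, the 1 region called higher became 2 with DESeq2, 2 with the loess offset, 2 with the annotated regions alone and 3 with only both groups in the fit, and 0 to 4 with single libraries left out. The 6 called lower became 12 with only both groups, 1 at adjusted p under 0.01, and 0 to 13 with libraries left out. For osimertinib DTP + AZD5153 over DMSO, the 3 called higher became 1 without TMM, 1 with only both groups and 1 at adjusted p under 0.01, and 1 to 6 with libraries left out, and the 7 called lower became 11 with DESeq2, 3 at adjusted p under 0.01, and 2 to 11 with libraries left out. Between osimertinib DTP + AZD5153 and osimertinib DTP the 0 called higher became 1 with DESeq2.

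The log2 values of gene sums with single libraries left out ranged, for osimertinib DTP over DMSO, from -0.21 to 0.57 at ERBB3 and from 3.83 to 4.44 at ERBB4. For osimertinib DTP + AZD5153 over DMSO they ranged from -0.85 to 0.19 at ERBB3, from 4.10 to 5.01 at ERBB4 and from -1.09 to -0.48 at EGFR promoters. For osimertinib DTP + AZD5153 over osimertinib DTP they ranged from -0.019 to 0.35 at EGFR, -0.50 to 0.086 at EGFR promoters, -0.016 to 0.45 at other EGFR regions, -0.17 to 0.24 at ERBB2, -0.12 to 0.23 at ERBB2 promoters, -0.98 to 0.025 at ERBB3 and -0.090 to 0.85 at ERBB4. In that comparison the ERBB2 sum was also -0.037 without TMM and -0.022 with only both groups, and ERBB2 promoters -0.021 without TMM, all close to 0 as in the value reported.

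With the replicate block, the ERBB4 sum in osimertinib DTP over DMSO was 4.26 and not called, and the ERBB3 sum was -0.042. In the other comparisons the deviations of libraries with the same number correlated at 0.243, 0.0262 and -0.240 between the treated groups. Between osimertinib DTP + AZD5153 and DMSO they correlated at -0.0183, 0.553 and 0.362. There the block gave -4.5e-05 for the ERBB2 sum between the treated groups, and over DMSO it ended the call of the EGFR region at 7692 bp (log2 1.91, adjusted p = 0.0711). For the lists, an alternative added after the data were seen, the block gave 8 receptor-turnover regions higher with AZD5153 over DMSO in place of 5 and 1 neighbour region lower in osimertinib DTP in place of 2.

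Without osimertinib DTP + AZD5153 replicate 3, added likewise for lists, medians and peaks, the list counts in osimertinib DTP over DMSO became 14 higher and 29 lower for ligands, 27 and 4 for adaptors, 19 and 25 for turnover, and 12 and 8 for neighbours. With AZD5153 over DMSO they became 23 and 9 for adaptors, 19 higher for turnover and 9 lower for neighbours. Peaks with a -log10 q of at least 10 were found in all 3 osimertinib DTP + AZD5153 libraries at 12 ERBB regions in place of 21. Depth limits the fold at ERBB4, where DMSO held 3 reads per library and the counting interval of the osimertinib DTP ratio ran from 9.96 to 43.2.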

Other observations

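The receptor genes span further counted regions that the annotated table does not assign to them, 30 in EGFR, 7 in ERBB2, 5 in ERBB3 and 7 in ERBB4, and 4 more in EGFR are assigned to EGFR-AS1. Those that passed the test did so with AZD5153 over DMSO alone, and they were picked out after their values were seen. All of them are given here. Of all tested regions, 9.05% were called higher and 9.01% lower in that comparison. In ERBB4, chr2:211407988-211408489 held 8, 6 and 5 reads in DMSO, 43, 14 and 17 in the osimertinib DTP persisters, and 95, 103 and 0 with AZD5153, with a log2 fold change over DMSO of 3.53 with AZD5153 (SE 0.98, edgeR adjusted p = 0.0198) and 2.05 in osimertinib DTP (adjusted p = 0.184). The library with 0 reads was replicate 3 of osimertinib DTP + AZD5153. In EGFR, chr7:55027382-55027883, the neighbour of the intron 1 region at 7692 bp, held 9, 14 and 18 reads in DMSO, 22, 37 and 132 in persisters, and 51, 159 and 6 with AZD5153, and its log2 fold change with AZD5153 over DMSO was 2.61 (SE 0.85, edgeR adjusted p = 0.0418). In ERBB3, chr12:56086449-56086950 held 38, 79 and 102 reads in DMSO, 23, 9 and 58 in persisters, and 6, 11 and 8 with AZD5153, where the log2 fold change with AZD5153 over DMSO was -2.69 (SE 0.71, edgeR adjusted p = 0.0154). This was the one ERBB3 position that passed, since the 2 annotated ERBB3 regions at the start did not.

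The 4 EGFR-AS1 regions lie inside EGFR towards its far end and none was called. The highest of them, chr7:55185946-55186447, held 353, 457 and 357 reads in DMSO, 235, 268 and 218 in persisters, and 388, 357 and 104 with AZD5153. At chr7:55185296-55185797 the reads were 236, 201 and 219 in DMSO, 117, 56 and 125 in persisters, and 137, 80 and 42 with AZD5153, all treated libraries below all DMSO libraries in reads, and the log2 fold changes over DMSO were -1.02 and -1.04 with edgeR adjusted p of 0.217 and 0.171.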
